A study of Mus musculus with 11 samples.

Results

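Wnt feedback and target genes were followed across neuroepithelium, neural crest and paraxial mesoderm of the mouse embryo. The 10 genes were taken by name from a list of Wnt ligands, targets and feedback regulators, out of 19938 genes with a probe of their own on the array: the ligands Wnt1 and Wnt3a, the inhibitors Nkd1, Nkd2 and Axin2, the transcription factors Lef1 and Sp5, the cyclin gene Ccnd1, and the ubiquitin ligase genes Rnf43 and Znrf3. Each gene was read by 1 probe that carried its symbol alone, and all 10 had values on every array. Neuroepithelium was sampled on 3 arrays, neural crest on 5 and paraxial mesoderm on 3, in CD1 outbred embryos at embryonic day 8.5 with no treatment or genetic modification named. Tissue was taken by laser capture from frozen sections, and its RNA was amplified before labelling. The series text speaks of captured single cells, whereas the labels give neither the cell number nor the embryo behind an array.

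Wnt ligands bind Frizzled and LRP receptors on the cell surface. In the canonical branch this stops the destruction complex, built on Axin and Apc, from degrading beta-catenin, which then enters the nucleus and joins Tcf and Lef factors to switch on target genes. Several targets, among them Axin2, Nkd1, Rnf43 and Znrf3, encode inhibitors of the pathway itself, so they are widely used as readouts of its activity. In the early embryo Wnt1 and Wnt3a are known from the dorsal midline of the neural tube, where the pathway takes part in neural crest induction and expansion, and Wnt3a is also known from the tail end of the body axis.

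Values are given as deposited, as the ratio of an array to the reference value of that probe. The 10 probes had 4 to 6 of their 11 arrays below 1, so a ratio near 1 marks the middle of the arrays and holds no expression level: a gene silent everywhere and a gene equally active everywhere look alike. An array was called high for a gene at a ratio of 4 or more, a limit set with earlier results of these data known. A high ratio from captured tissue can come from more expressing cells or from more RNA per cell, among other sources, and these cannot be told apart. The part of the RNA amplification in the ratios was not tested.

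Tcf and Lef factors bind DNA around a short core, searched here as CTTTGA on either strand (its reverse reads TCAAAG) in the 250 bases before each transcription start. RefSeq promoter windows (GRCm38.p6, a later build than the mm9 of the submitters' processing notes) were listed for 8 of the 10 genes in 12 windows, and Ccnd1 and Znrf3 had no entry. The core was found in 2 of the 12 windows, against 13.8% of all 32851 windows of that length. Sp5 held it at 204 and 104 bases before the start, counted to the first base of each match, and 1.37% of all windows held 2 or more. The other window with matches belonged to 1 of the 4 listed starts of Lef1 and also held 2, at 180 and 120 bases before the start. Since 2 of the Lef1 windows overlap, the 12 windows are not all separate sequence. Shown are the windows of 3 genes whose ratios left their reference, with matches in capitals: Sp5 at chr2:70474673-70474922, Nkd1 at chr8:88527383-88527632 and Wnt1 at chr15:98789607-98789856, all on the plus strand.
Sp5: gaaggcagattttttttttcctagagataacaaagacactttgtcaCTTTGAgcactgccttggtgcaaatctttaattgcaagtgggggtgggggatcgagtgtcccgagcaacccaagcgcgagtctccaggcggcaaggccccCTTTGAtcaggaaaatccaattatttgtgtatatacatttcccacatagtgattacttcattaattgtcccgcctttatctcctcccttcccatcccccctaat
Nkd1: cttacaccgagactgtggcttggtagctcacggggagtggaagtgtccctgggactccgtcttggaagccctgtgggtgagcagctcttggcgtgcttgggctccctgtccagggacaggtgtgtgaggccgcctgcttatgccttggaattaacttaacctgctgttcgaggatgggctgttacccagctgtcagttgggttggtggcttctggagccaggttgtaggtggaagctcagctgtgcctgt
Wnt1: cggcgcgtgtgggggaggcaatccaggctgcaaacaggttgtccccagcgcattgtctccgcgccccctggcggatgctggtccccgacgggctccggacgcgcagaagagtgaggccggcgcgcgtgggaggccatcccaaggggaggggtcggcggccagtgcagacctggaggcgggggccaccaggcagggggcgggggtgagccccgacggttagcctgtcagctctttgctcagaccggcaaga
The windows of Nkd1 and Wnt1 held no match, which says only that these letters are not in the bases shown. A match describes the letters and is no evidence of binding, and 46.0% of the Sp5 bases were G or C against 58.4% for Nkd1 and 71.6% for Wnt1.

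Among the 10 genes, 5 stayed within 2-fold of their reference on all 11 arrays, where 71.9% of all 21789 probes did so. At least 2-fold off on some array were the other 5, against 28.1% of all probes: Wnt1, Nkd1, Lef1, Sp5 and Ccnd1. High ratios were found for 4 genes, against 21.0% of all probes with a high ratio somewhere, and none of the 10 was 4-fold low on any array, against 5.30% of all probes. The high ratios were 10 of 110 pairs of gene and array. Of these, 8 of 50 were in neural crest, 1 of 30 in neuroepithelium and 1 of 30 in paraxial mesoderm, where the shares over all probes were 4.41%, 3.96% and 4.53%. The crest count was 5 of 50 at a limit of 8-fold, and 5 remained with crest array 2 left out.

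**Figure D1:**
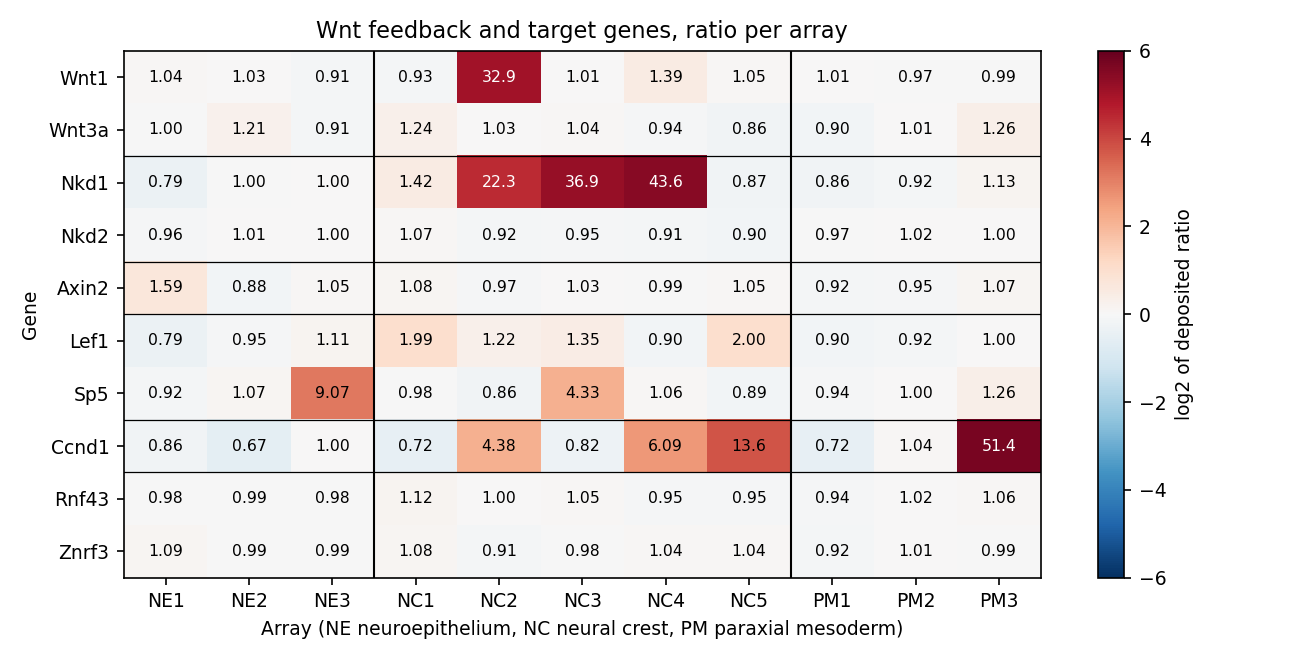
Deposited ratios of the 10 Wnt genes (rows) on the 11 arrays (columns, grouped by tissue), written in each cell and coloured by log2 of the ratio. Nkd1 stands at 22.3, 36.9 and 43.6 on neural crest arrays 2 to 4, and Axin2, Rnf43, Znrf3, Wnt3a and Nkd2 stay within 2-fold of 1, with the 1.59 of Axin2 on neuroepithelium array 1 the highest of these.

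Wnt1, the ligand that marks the dorsal midline and the crest-forming region, was high on neural crest array 2 alone. Its ratios were 0.930, 32.9, 1.01, 1.39 and 1.05 on crest arrays 1 to 5. On the neuroepithelium arrays they were 1.04, 1.03 and 0.914, and on the mesoderm arrays 1.01, 0.973 and 0.989. The remaining crest arrays lay between 0.930 and 1.39, so the tissues overlapped. Wnt3a, the ligand most often found beside Wnt1, kept to 0.858 to 1.24 in crest, 0.912 to 1.21 in neuroepithelium and 0.901 to 1.26 in mesoderm. On the Wnt1-high array its ratio was 1.03. A single high array is common here, since 8.90% of all probes were high on exactly 1 array, and 192 other probes were high on crest array 2 and on no other.

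Nkd1, which binds Dishevelled and dampens the signal inside the cell, was high on 3 of 5 crest arrays and on no array of another tissue. Its ratios were 1.42, 22.3, 36.9, 43.6 and 0.869 on crest arrays 1 to 5. The neuroepithelium arrays gave 0.795, 0.996 and 1.00, and the mesoderm arrays 0.863, 0.919 and 1.13. Crest arrays 2, 3 and 4 thus stood far above all 6 arrays of the other tissues. Crest array 1 (1.42) lay a little above the highest of those 6 (1.13), and crest array 5 fell among them. Over all probes, 61 (0.280%) were high on at least 3 crest arrays and on no array of another tissue, a count set up after the Nkd1 values were seen. Its paralog Nkd2 showed none of this, with 0.902 to 1.07 in crest, 0.961 to 1.01 in neuroepithelium and 0.969 to 1.02 in mesoderm.

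Axin2, the scaffold protein of the destruction complex whose gene is a general Wnt target, stayed within 2-fold on every array. It read 1.08, 0.967, 1.03, 0.994 and 1.05 in crest, and 0.916, 0.950 and 1.07 in mesoderm. In neuroepithelium it read 1.59, 0.885 and 1.05, and the 1.59 of array 1 was its highest ratio. On the 3 crest arrays with high Nkd1, Axin2 lay between 0.967 and 1.03.

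Rnf43 and Znrf3, membrane ligases that remove Frizzled receptors from the surface, varied little. Rnf43 kept to 0.944 to 1.12 and Znrf3 to 0.914 to 1.09 over all 11 arrays. The SD of the log2 ratio was 0.0767 for Rnf43 and 0.0830 for Znrf3, with 71.2% and 67.7% of all probes more variable. Nkd2 (SD 0.0768) lay between these values. Axin2 (SD 0.223) and Wnt3a (SD 0.192) sat higher, with 33.8% and 36.8% of probes more variable, whereas Nkd1 (SD 2.39) was exceeded by only 4.58% of probes.

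Lef1, the nuclear partner of beta-catenin that is itself a Wnt target, moved by small amounts. It read 1.99, 1.22, 1.35, 0.905 and 2.00 on crest arrays 1 to 5. The neuroepithelium arrays gave 0.792, 0.947 and 1.11, and the mesoderm arrays 0.899, 0.925 and 1.00. Crest arrays 1, 2, 3 and 5 lay above all 6 other arrays, and array 4 lay among them. The 2 highest, arrays 1 and 5, were the crest arrays without a high Nkd1 ratio.

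Sp5, a zinc-finger factor switched on by Wnt signalling in the early embryo, was high in different tissues. It reached 9.07 on neuroepithelium array 3 and 4.33 on crest array 3. The other neuroepithelium arrays gave 0.916 and 1.07, the other crest arrays 0.982, 0.860, 1.06 and 0.886, and the mesoderm arrays 0.939, 1.00 and 1.26. The crest value stood just above the limit of 4.

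Ccnd1, the D-type cyclin that drives cells from G1 into S phase and is a reported Wnt target, was high on the most arrays of the 10 genes. Its ratios were 0.719, 4.38, 0.820, 6.09 and 13.6 on crest arrays 1 to 5. Paraxial mesoderm gave 0.718, 1.04 and 51.4, and neuroepithelium 0.856, 0.674 and 1.00. The highest array was thus mesoderm array 3, with crest array 5 next, and no neuroepithelium array was above 1.00. Its relative Ccnd2 was high on other arrays for the most part: neuroepithelium array 3 (31.3), crest arrays 2 (5.22) and 5 (36.1), and mesoderm arrays 1 (8.12) and 2 (8.86). Crest arrays 2 and 5 were high for both cyclins.

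**Figure D2:**
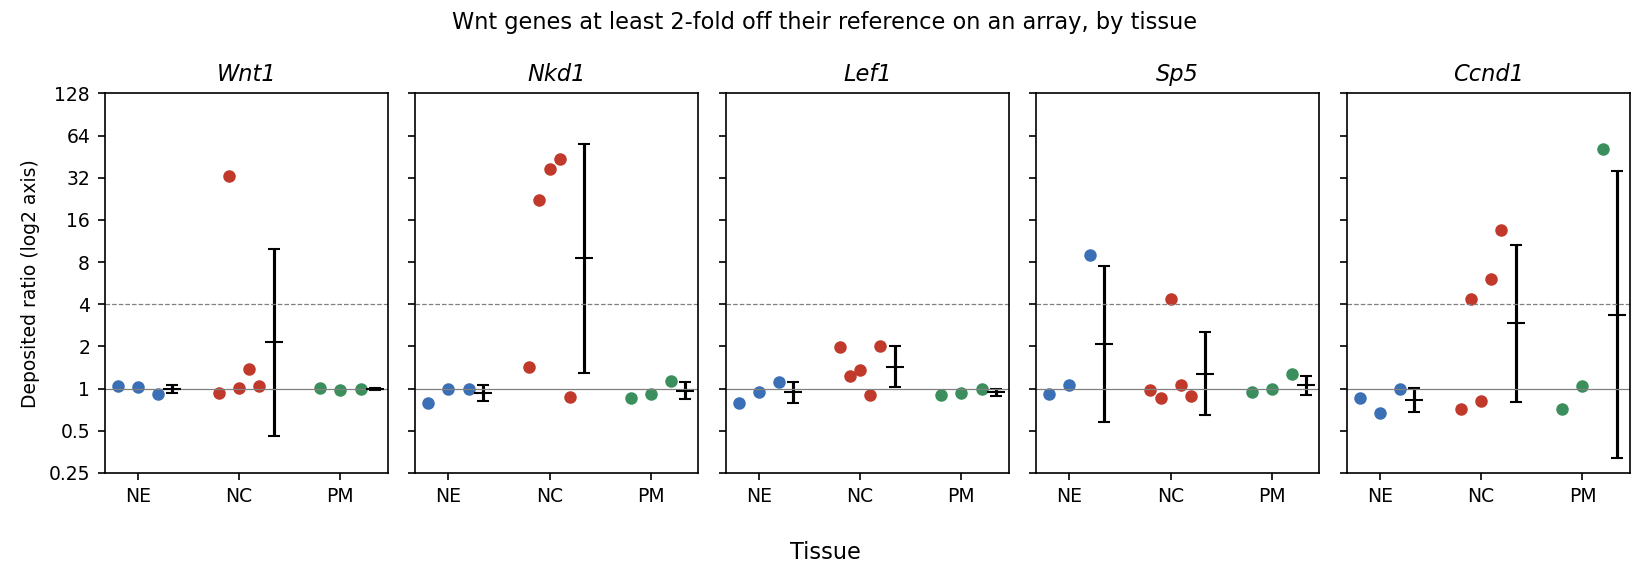
Ratios of Wnt1, Nkd1, Lef1, Sp5 and Ccnd1 (log2 axis) by tissue, 1 point per array, with the geometric mean and 1 SD of the log2 ratio in black. Solid and dashed lines mark ratios of 1 and 4, and in no panel do all arrays of a tissue lie apart from all arrays of another.

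The high genes met in different combinations on the crest arrays. Array 2 was high for Wnt1, Nkd1 and Ccnd1, array 3 for Nkd1 and Sp5, array 4 for Nkd1 and Ccnd1, array 5 for Ccnd1, and array 1 for none of the 10. The share of all probes that were high was 1.97% on crest array 1, 5.60% on array 2, 5.13% on array 3, 2.00% on array 4 and 7.33% on array 5. Array 4 therefore had 2 of the 10 genes high at a share close to that of array 1, which had 0. Mesoderm array 1 had 0 at the highest share of all, 7.88%, and mesoderm array 3 had 1 at the lowest, 1.83%. The remaining shares were 3.52%, 2.85% and 5.51% on the neuroepithelium arrays, with Sp5 on the third of them, and 3.90% on mesoderm array 2.

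**Figure D3:**
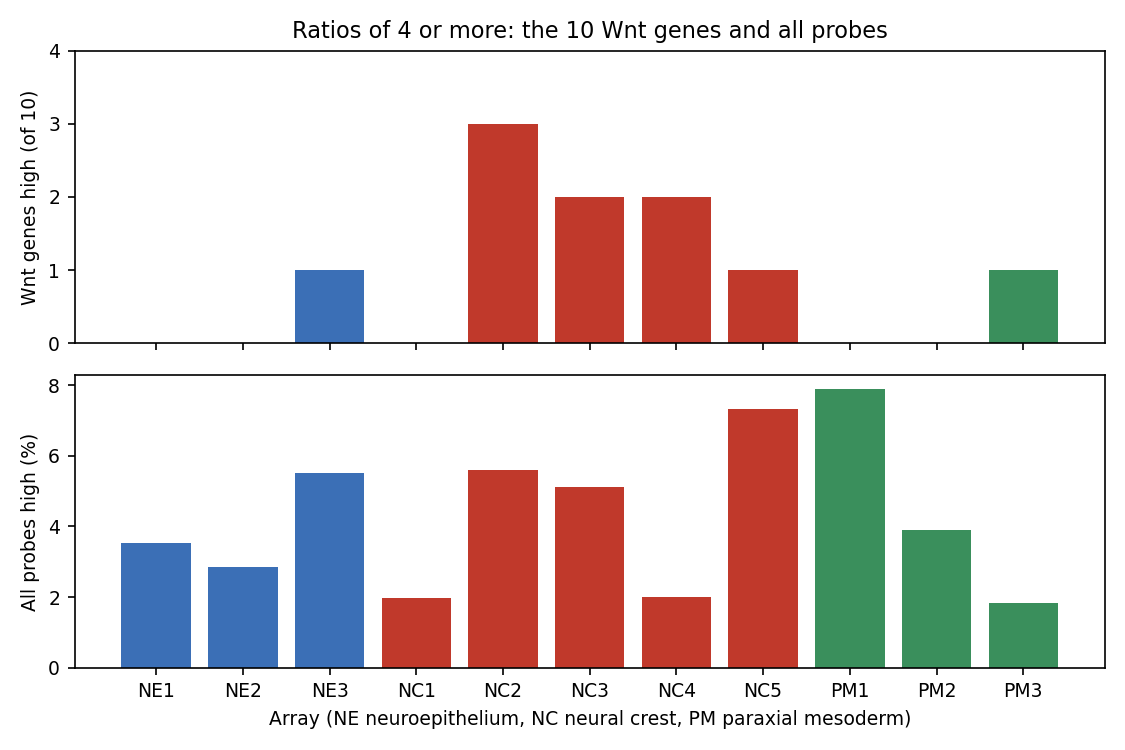
Number of the 10 Wnt genes with a ratio of 4 or more on each array (upper bars), and the percentage of all 21789 probes that reached it (lower bars), coloured by tissue. Crest arrays 2, 3 and 4 have 3, 2 and 2 of the genes, and the lower bars run from 1.83% to 7.88%.

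No gene of the list passed in any comparison of tissues by limma with Benjamini-Hochberg adjustment over all 21789 probes. Between neural crest and neuroepithelium 0 of 10 passed, where 0.0275% of all probes did, and 2 of 10 had an unadjusted p under 0.05, where 2.77% of all probes did. Between neural crest and paraxial mesoderm the counts were 0 (0.00918% of all probes) and 2 (2.86%). Between paraxial mesoderm and neuroepithelium they were 0 (0.0138%) and 0 (2.41%). In 0 of 10 genes did any pair of tissues separate without overlap, against 2.95%, 2.63% and 6.86% of all probes in the 3 comparisons. Median log2 differences of the 10 genes were 0.01, 0.06 and 0.0041, beside -0.00052, 0.0011 and -0.0025 over all probes. The comparisons share arrays, so they are not independent. Since the embryos behind the arrays are unnamed, the p-values speak for the scatter among these arrays alone, and they are too small if a tissue was sampled repeatedly from 1 embryo.

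Nkd1 and Lef1 were the 2 genes with an unadjusted p under 0.05, each for neural crest against both other tissues. Nkd1 had a mean log2 ratio of 3.09 ± 2.71 (SD, n = 5) in crest, -0.11 ± 0.19 (n = 3) in neuroepithelium and -0.05 ± 0.20 (n = 3) in mesoderm. Its log2 difference of crest from neuroepithelium was 3.20 (SE 1.34, 95% interval 0.16 to 6.24), and from mesoderm 3.14 (SE 1.34, 0.10 to 6.18). In limma these gave unadjusted p = 0.0411 and 0.0443 and adjusted p = 1.00 for both, with 3 of 5 crest arrays carrying the difference. In each of these comparisons Nkd1 kept an unadjusted p under 0.05 in 9 of 19 alternative fits. With only the 2 tissues compared it was 0.0742 against neuroepithelium and 0.0788 against mesoderm, and with 1 array left out it stayed under 0.05 only without crest array 1 or 5. Lef1 averaged 0.52 ± 0.49 in crest, -0.09 ± 0.24 in neuroepithelium and -0.09 ± 0.08 in mesoderm. Its differences were 0.61 (SE 0.26, 0.02 to 1.19) and 0.60 (SE 0.26, 0.02 to 1.19), with limma unadjusted p = 0.0435 and 0.0437 and adjusted p = 1.00, and 4 of 5 crest arrays above all others. The unadjusted p of Lef1 stayed under 0.05 in 8 of 19 alternatives against neuroepithelium and in 7 against mesoderm. It was 0.0764 and 0.0657 with only the 2 tissues compared, 0.129 and 0.175 with quantile normalization, and 0.298 and 0.299 among probes at least 2-fold off on an array. With 1 array left out it stayed under 0.05 only without crest array 2 or 4 and, against neuroepithelium, without neuroepithelium array 3.

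Wnt1, Sp5 and Ccnd1 gave wide intervals around their differences. Wnt1 differed by 1.11 (SE 1.09, -1.36 to 3.59) between crest and neuroepithelium, and by 0.13 when crest array 2 was left out. Crest differed from mesoderm by 1.11 too, and mesoderm from neuroepithelium by -0.0015. Sp5 differed by -0.69 (SE 0.81, -2.53 to 1.15) between crest and neuroepithelium, and by 0.37 without neuroepithelium array 3. Ccnd1 differed by 1.81 (SE 1.50, -1.60 to 5.22) between crest and neuroepithelium. Between crest and mesoderm it differed by -0.21 (SE 1.50, -3.62 to 3.20), and by 1.76 without mesoderm array 3. For mesoderm against neuroepithelium the Ccnd1 difference was 2.02 (SE 1.68, -1.79 to 5.83), and 0.06 without that array. These intervals reach past 4-fold in at least 1 direction, so a p that misses the threshold does not show that the tissues were alike.

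**Figure D4:**
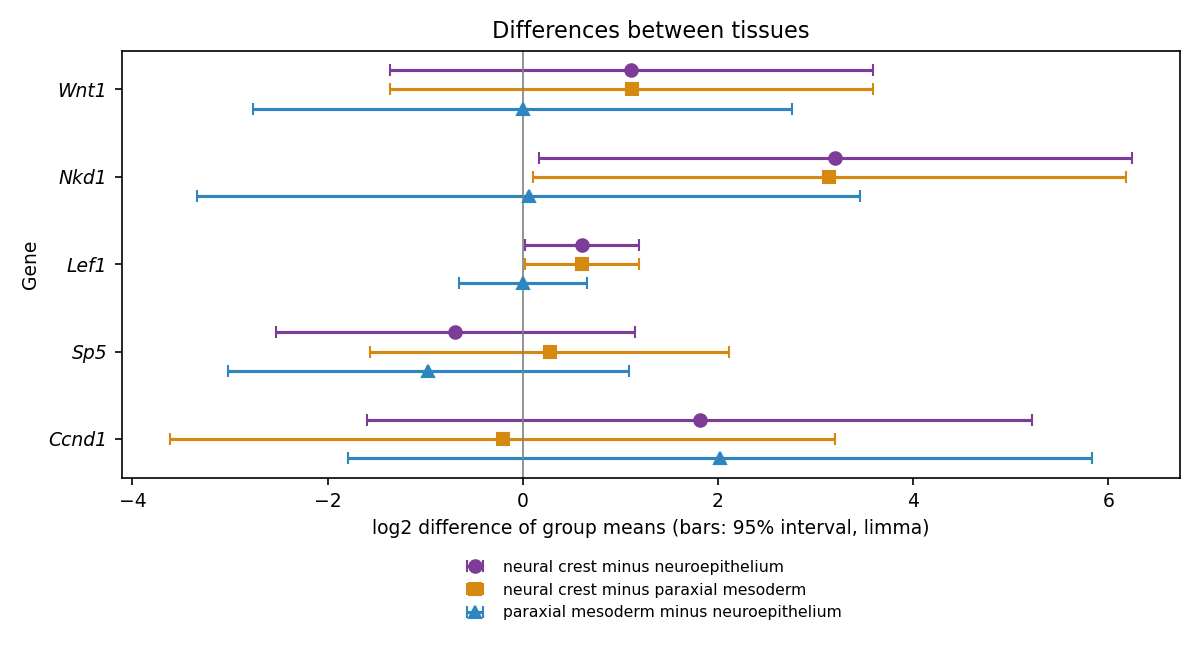
Log2 differences between tissues for the 5 Wnt genes at least 2-fold off on an array (points), with 95% intervals from limma (bars). The intervals of Nkd1 and Lef1 for neural crest against either other tissue start just above 0 before any adjustment, and all others span 0.

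Genes with the most similar course over the 11 arrays were looked up for the 4 high genes by Pearson correlation of log2 ratios, as a description with no test, and all points share their arrays. For Nkd1 they were Gar1 (r = 0.994), Nfkbil1 (0.984) and Arhgef40 (0.950). Gar1 encodes a protein of small nucleolar particles, and it read 2.80, 3.40 and 3.95 on crest arrays 2, 3 and 4 against at most 1.06 elsewhere. Nfkbil1 read 14.1, 9.86 and 14.1 on those arrays. In all, 4 other probes were high on exactly the arrays of Nkd1.

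For Sp5 the nearest were Fam76b (r = 0.989), Isoc1 (0.985) and Tnfaip8 (0.981), with 11.8, 13.2 and 38.8 on neuroepithelium array 3 and 4.71, 7.84 and 15.4 on crest array 3. Ccnd1 was followed by Rnf130 (r = 0.929), which read 4.37, 20.3, 6.14 and 40.1 on the 4 arrays where Ccnd1 was high, and by Proser3 (0.928) and Gp2 (0.913), both within 2-fold of their reference on all arrays. Wnt1 was followed by Fbxw17, Rexo4 and Lrmp (r = 0.998 for each), which read 6.34, 48.9 and 21.3 on crest array 2 and near 1 elsewhere, as any gene high on that array alone would. None of these genes belongs to the Wnt lists used here.

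Beyond the 10 genes, 101 of 103 further Wnt pathway genes were measured, and Tcf7 and T were not analysed here. Of these, 77 (76.2%) stayed within 2-fold on all arrays and 22 (21.8%) were high on at least 1, beside 71.9% and 21.0% of all probes. None of their 103 probes passed in limma in any comparison. At an unadjusted p under 0.05 were 3 for crest against neuroepithelium, 4 for crest against mesoderm and 3 for mesoderm against neuroepithelium. The shares over all probes were close to these counts, at 2.77%, 2.86% and 2.41%. Median log2 differences of the 103 probes were -0.0058, 0.01 and -0.02.

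Among the other ligands 3 of 17 were high, all on neuroepithelium array 2: Wnt6 (15.0), Wnt4 (7.42, by 1 of its 2 probes) and Wnt10a (5.76). The other Wnt4 probe read 0.962 on that array and at most 1.40 on any. Wnt6 also read 3.52 on neuroepithelium array 3 and at most 1.17 on every other array. None of these 17 ligands was high on a crest or mesoderm array. Ligand export depends on Wls, the carrier of Wnt proteins to the surface. It was high on neuroepithelium arrays 1 (24.6) and 3 (19.9) and mesoderm arrays 2 (35.0) and 3 (10.3), and it stayed between 0.825 and 1.39 in crest. Its partner in ligand maturation, Porcn, was not high on any array.

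Receptors were high on arrays of all 3 tissues, with 3 of 16 genes involved. Fzd2 was high on neuroepithelium arrays 1 (12.4) and 3 (14.1), crest arrays 2 (10.2) and 5 (12.0) and mesoderm array 3 (17.3). Ryk, a tyrosine-kinase-like Wnt receptor, was high on neuroepithelium array 3 (5.18), crest arrays 3 (5.08) and 5 (5.69), and mesoderm arrays 1 (23.2) and 2 (4.81). Fzd3 was high on neuroepithelium array 1 alone (43.6). Lgr4, an R-spondin receptor that holds Rnf43 and Znrf3 in check, was high on mesoderm arrays 1 (38.8) and 3 (68.9) and between 0.943 and 1.05 on all arrays of the other tissues. It overlapped with them through mesoderm array 2 (1.01), and it was the only 1 of 7 R-spondin and Lgr genes with a high ratio. Its log2 difference of crest from mesoderm was -3.80 (SE 1.15, limma unadjusted p = 0.00943, adjusted p = 1.00).

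Of 16 secreted and membrane inhibitors 3 were high. Sostdc1 stood out on neuroepithelium array 1 (50.8) and Apcdd1, another reported Wnt target, on neuroepithelium array 2 (47.3). Sfrp2, a secreted Frizzled-related protein, ran from 0.0731 on neuroepithelium array 2 to 5.15 on mesoderm array 3 and was 4-fold low or lower on 5 arrays from all 3 tissues. In the destruction complex and its kinases 5 of 15 were high. Gsk3a was high on crest arrays 2 (9.24) and 3 (9.72), Csnk1e on crest arrays 1 (5.58) and 3 (15.2), Csnk1d on neuroepithelium array 2 (28.2), crest array 3 (8.53) and mesoderm array 3 (8.26), Btrc on crest array 2 (6.22) and mesoderm array 1 (10.2), and Amer1 on neuroepithelium array 3 (32.1) and mesoderm array 2 (67.4). Csnk1a1, a casein kinase that primes beta-catenin for degradation, was low instead, at 0.0240 and 0.0253 on crest arrays 1 and 4. It read 0.401 on mesoderm array 1 and 0.870 to 1.53 on the other 8 arrays.

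Nuclear genes of the pathway were high in 4 of 13 cases. Tcf7l1, a Tcf factor known mainly as a repressor of Wnt targets, reached 32.4 on crest array 2, the array with high Wnt1 and Nkd1, and 4.80 on neuroepithelium array 3. The corepressor gene Tle1 was high on crest array 3 alone (11.5). Tle5, of the same family, read 0.846 on that array. It was high on neuroepithelium arrays 1 (7.41) and 3 (6.96), crest array 1 (19.3) and mesoderm array 3 (39.6). Ctnnbip1, an inhibitor of beta-catenin, reached 4.83 on neuroepithelium array 2. Ctnnb1, the beta-catenin gene itself, was not high on any array and ran from 0.0829 on mesoderm array 2 to 3.39 on crest array 3. On crest arrays 2, 3 and 4, those with high Nkd1, it read 0.504, 3.39 and 0.113.

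Of 15 other reported Wnt targets 2 were high, Ccnd2 as given above and Myc. The growth regulator Myc read 5.83, 4.42, 1.99, 1.42 and 4.97 on crest arrays 1 to 5 and 0.0630 to 0.0836 in neuroepithelium. On the mesoderm arrays it read 1.57, 0.317 and 0.0636. Its log2 difference of crest from neuroepithelium was 5.51 (SE 0.92) and did not pass (limma adjusted p = 0.487), although all 5 crest arrays lay above all 3 others. The targets of the tail bud and presomitic mesoderm, such as Tbx6, Msgn1, Cdx2 and Dll1, had no high array.

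**Figure D5:**
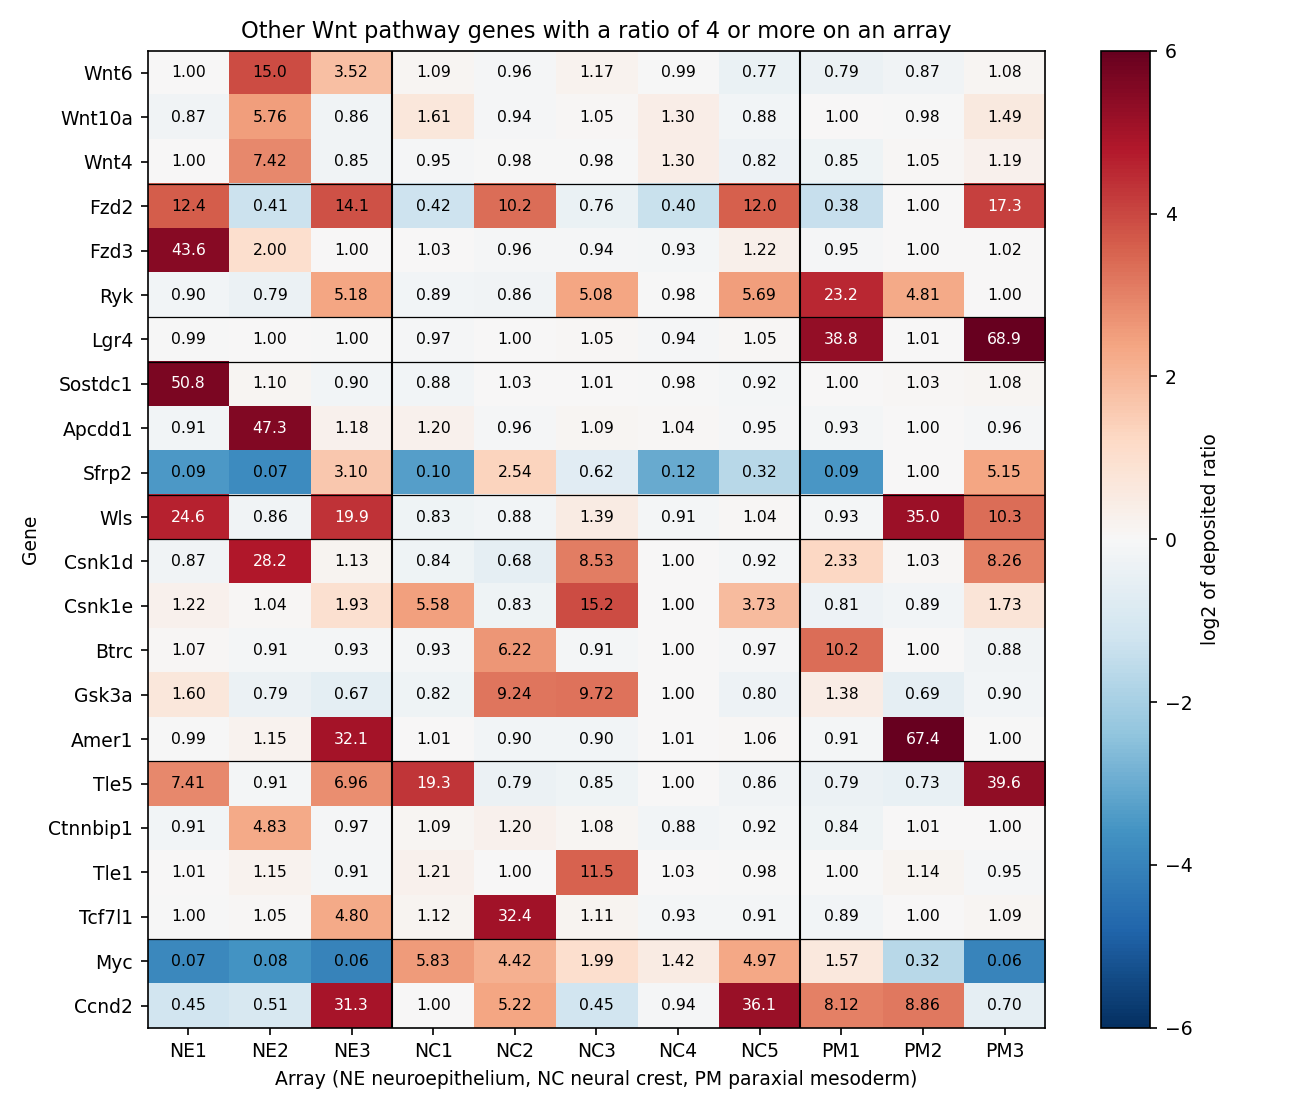
Deposited ratios of the 22 other Wnt pathway genes with a ratio of 4 or more on an array (rows, in blocks by role from ligands at the top to targets at the bottom) on the 11 arrays. Wnt6, Wnt10a and 1 of 2 Wnt4 probes (the one drawn) are high on neuroepithelium array 2, Lgr4 on mesoderm arrays 1 and 3, and Myc is lowest on the neuroepithelium arrays and mesoderm array 3.

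Markers of the labelled tissues varied in how far they marked their arrays. Of 8 crest markers 5 were high on a crest array. The summed ratio of all 8 was 60.0 to 153 on the crest arrays, 7.68 to 29.1 on neuroepithelium and 6.78 to 8.33 on mesoderm. Snai1 alone made up most of that sum on crest arrays 1 (51.0), 3 (82.1) and 4 (54.9). Foxd3 was not high on any array and reached 3.99 on crest array 4. Tfap2a (0.945 to 1.07) and Ets1 (0.951 to 1.19) stayed near 1 on all arrays. Snai1 was high on all 5 crest arrays (41.2 to 82.1), Tfap2b on arrays 2 (27.9), 3 (21.4) and 5 (51.3) and also on neuroepithelium array 3 (22.6), Sox9 on arrays 2 (17.2) and 5 (21.3), Twist1 on the same 2 (8.79 and 27.3) and on neuroepithelium array 2 (5.92), and Sox10 on array 5 (7.67). Among the crest arrays the summed ratio was lowest on arrays 1 (60.0) and 4 (65.4), of which array 4 had high Nkd1 and Ccnd1 and array 1 had neither. None of the 8 paraxial mesoderm markers was high on any array, and of 6 neuroepithelium markers only Nes was, on crest array 3 (8.48), so the ratios do not mark these 2 tissues by their own genes.

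Genes listed here as markers of other cell types were high on some of the arrays named above, and their ratios alone do not identify a cell type. Neuroepithelium array 3, with high Sp5, was high for the surface ectoderm genes Krt18 (78.6), Krt8 (33.9), Epcam (37.4) and Grhl2 (25.0), and for the dorsal gene Msx1 (7.97). Of these 5 only Grhl2 was high on that neuroepithelium array alone, since Krt18, Krt8, Epcam and Msx1 were high on all 3 neuroepithelium arrays (Msx1 24.7 and 46.1 on arrays 1 and 2), where Sp5 read 0.916 and 1.07 on the first 2. Neuroepithelium array 2, with high Wnt6, Wnt4, Wnt10a and Apcdd1, had 5 of the 8 surface ectoderm markers high, among them Grhl3 at 60.0, which was high on no other array, and Wnt6 is itself 1 of the 8. The 8 surface ectoderm markers summed to 174 to 223 in neuroepithelium, 7.33 to 45.6 in crest and 6.88 to 193 in mesoderm. Crest array 3 was high for Krt8 (36.3) and Msx1 (32.3), and crest array 5 for Tfap2c (11.2). Crest array 2, with high Wnt1, had none of the 7 measured dorsal neural tube and roof plate markers high. Their summed ratio there was 6.94, with Msx1 at 0.857. The sums ran from 13.5 to 53.0 in neuroepithelium, from 6.94 to 39.0 in crest and from 6.15 to 60.2 in mesoderm. Of the 7, only Msx1 and Msx2 were high on any array, so the larger sums rest on them. Pax3, Pax7, Gdf7, Zic1 and Zic2 read at most 1.32 on every array, and Pax3 read 1.25 on crest array 2. The sum therefore does not show whether dorsal tissue was present on that array. Mesoderm array 3, with the highest Ccnd1, was high for the notochord genes Nog (9.63) and Foxa2 (7.64) and for Krt8 (30.5). The 6 notochord markers summed to 21.4 there against 5.34 to 6.90 on the other 10 arrays. Only Nog and Foxa2 raised that sum, since Shh (1.20), Noto (0.893), Chrd (0.998) and Foxa1 (1.09) were near 1 on the array. Red cell markers were high on mesoderm array 1 alone, which had none of the 10 Wnt genes high, and 0 of the 5 measured tail bud and 0 of 6 endothelial markers were high anywhere. The part of these cell types in the ratios of the Wnt genes was not tested.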

How the data were processed

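RNA of captured CD1 embryo tissue was hybridised to 11 Affymetrix mouse arrays, and the groups were taken from the tissue labels. RMA and the build mm9 are named in the submitters' processing notes without a version. The deposited values are linear ratios to a reference of each probe, with column medians of 0.991 to 1.01, and the sources used here do not say how the authors made the reference. The precision is limited by the number of arrays. The table listed 35557 probes, of which 28856 had values and 21789 carried 1 symbol. Left out were 1621 probes with several symbols and 5446 with none, and symbols were checked by Entrez identifier against RefSeq (21698 matched, 0 changed).

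Log2 ratios of all 21789 probes were fitted with 3 group means in limma 3.58.1 under R 4.3.3, with eBayes without a trend since ratios hold no intensity, and p-values were adjusted by Benjamini-Hochberg with a two-sided threshold of 0.05. The fit was run on simulated data with normal scatter of equal size in all tissues. Probes such as Nkd1 scattered far more in crest than elsewhere, so that run does not show how the fit performs on them. The genes, lists and limits were chosen with earlier results of these data known. Named were all 10 genes, with a log2 difference where a probe was at least 2-fold off on an array, each further pathway gene high on an array or past the threshold (up to 6 per list), markers high on the same arrays, and the 3 probes of other genes nearest in course to each high gene. Porcn, Ctnnb1, Csnk1a1, Grhl3, Tbx6, Msgn1, Cdx2, Dll1 and the tests of Lgr4 and Myc were added after their values were seen. Alternatives were a trend, 1 probe per gene, only the 2 tissues compared, the replicate number as a block, a floor of 0.25, array centring, quantile normalization, only probes at least 2-fold off on an array, and leaving out each array.

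Same-numbered arrays of different tissues did not deviate together (correlations of -0.145 to 0.0525 over 9 pairs), so the numbers were not taken as pairs.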

Additional observations from a re-analysis of the deposited data

Results flagged for a closer look

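In the group of 5 neural crest arrays, 3 of the 10 genes had an array apart from its fellows on the log2 scale. The rule set the gap to the next array against the range of the 5 arrays, with a limit of 0.71. It flags about 1 in 20 groups of normally distributed values, a shape these ratios need not have. Over all probes, 8.90% were high on exactly 1 array. The share of all probes flagged by this rule was not counted, so 3 of 10 cannot be read as an excess. Wnt1 on crest array 2 read 32.9, with the next crest array at 1.39. Sp5 on crest array 3 read 4.33, with the next at 1.06. Nkd2 on crest array 1 read 1.07, with the next at 0.946, and passed the limit narrowly (0.716). Groups of 3 arrays were not examined in this way, and the cause was not tested for any of these values.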

How the results depend on the processing

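None of the 10 genes passed in any of 19 alternatives to the fit in any comparison (lowest adjusted p 0.866 by limma). Over all probes, the number passing between crest and neuroepithelium was 6, and 2 with a trend and 10 with only the 2 tissues compared, and 5 to 20 with an array left out (15, 20 and 16 without neuroepithelium arrays 1, 2 and 3, and 11 without crest array 1). Between crest and mesoderm it was 2, and 0 with a trend (634 at an unadjusted p under 0.05), 1 with quantile normalization, and 1 to 45 with an array left out, 45, 12 and 4 without mesoderm arrays 3, 2 and 1, 5 without crest array 1, and 1 without crest array 3 or neuroepithelium array 2 or 3. Between mesoderm and neuroepithelium it was 3, and 3 to 40 with an array left out, 40, 14 and 7 without mesoderm arrays 3, 2 and 1, 11, 13 and 12 without neuroepithelium arrays 1, 2 and 3, and 5 without crest array 2. The cause was not tested. Crest had 8 high pairs of gene and array, and 5 at an 8-fold limit and 5 to 8 with a crest array left out, while neuroepithelium and mesoderm had 1 each, and 0 to 1 with an array left out.

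Log2 differences changed sign in some alternatives, none of them near the threshold. Sp5 between crest and mesoderm was -0.036 with quantile normalization. With an array left out, Sp5 ran from -1.28 to 0.37 between crest and neuroepithelium, from -0.16 to 0.42 between crest and mesoderm and from -1.56 to 0.10 between mesoderm and neuroepithelium. Ccnd1 between crest and mesoderm ran from -1.32 to 1.76. Between mesoderm and neuroepithelium, Wnt1 ran from -0.060 to 0.031, Nkd1 from -0.055 to 0.14 and Lef1 from -0.12 to 0.12. Nkd1 stayed positive for crest, at 2.61 to 4.02 against neuroepithelium and 2.55 to 3.96 against mesoderm. The replicate block passed 6, 3 and 2 probes in the 3 comparisons and 0 of the 10 genes. By replicate number, 0 of 9 arrays correlated best with an array of their own number.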
